A study of Homo sapiens with 6 samples.

Results

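Aminoacyl-tRNA synthetases, the enzymes that load each amino acid onto its tRNA, were followed in U2OS cells, a human osteosarcoma line, after loss of NUDT5, a NUDIX hydrolase that cleaves ADP-ribose. By symbol, 39 of the 19977 genes of the expression table were taken: 20 synthetases of the cytosol, 16 of mitochondria and the scaffold proteins AIMP1, AIMP2 and EEF1E1. There were 3 libraries of cells transfected with an siRNA against NUDT5 (siNUDT5) and 3 of cells given a non-targeting siRNA (siCtrl). All cells were otherwise untreated and were harvested 48 hours after transfection. Whether a group's libraries are separate cultures is not stated in the labels, and the p-values below therefore rest on a spread between libraries that could be technical. Values are TPM, a unit scaled for transcript length and library total, so that levels can be compared between genes. TPM are shares of a library, so fewer cells of a type and less RNA per cell cannot be told apart.

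Each synthetase joins its amino acid to the matching tRNA at the cost of ATP, and in human cells the cytosol and the mitochondria use mostly separate nuclear genes for this. Several cytosolic enzymes sit in a large multi-synthetase complex held together by AIMP1, AIMP2 and EEF1E1. Uncharged tRNA activates the kinase GCN2, which phosphorylates eIF2 and raises translation of the transcription factor ATF4, and ATF4 in turn drives many cytosolic synthetase genes through a promoter element known as the C/EBP-ATF response element.

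NUDT5 mRNA stood at 3.04, 2.74 and 2.67 TPM in siNUDT5 libraries 1 to 3, against 46.2, 49.0 and 52.0 TPM in siCtrl libraries 1 to 3. NUDT5 thus kept 5.74% of its siCtrl mean in TPM. On the log2(TPM + 1) scale, where the added 1 makes falls to low levels smaller, its change was -3.71 (limma adjusted p = 1.32e-06). By an exact two-sided permutation test p was 0.1, which is the lowest value possible with 3 libraries in each group. Steps between the lowest TPM values, each worth 1 read, gave relative depths of 89.4% to 118% in siNUDT5 and of 64.1% to 112% in siCtrl, with siCtrl 1 set to 100% and siCtrl 2 the shallowest. siCtrl 2 also stood apart in level. The median absolute difference over the 38 tested members on the log2(TPM + 1) scale was 0.258 between siCtrl 1 and siCtrl 2 and 0.179 between siCtrl 2 and siCtrl 3, where the other 4 within-group pairs had 0.0686 to 0.0885. Over all tested genes the same pairs had 0.296 and 0.227, and the other 4 had 0.0967 to 0.134, so this was not particular to the members. Of 6 osteoblast and mesenchymal markers, vimentin, SPARC and COL1A1 were abundant (VIM 3513 to 3589 TPM in siNUDT5 and 3028 to 3188 TPM in siCtrl), while COL1A2 was at most 0.393 TPM. Of 7 markers of other cell types found in the table, CD3E was listed at 0 in all 6 libraries, and the markers summed to 7.71 to 8.16 TPM in siNUDT5 and 10.0 to 15.0 TPM in siCtrl, mostly EPCAM, which fell by 0.74 on the log2 scale (limma adjusted p = 0.0271). The part of EPCAM-positive cells in the results was not tested.

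Of the 20 cytosolic synthetase genes 5 fell after NUDT5 knockdown, none rose and 15 did not pass, where 5.20% of all tested genes fell and 10.9% rose. A gene passed at a two-sided Benjamini-Hochberg adjusted p under 0.05 in limma, fitted on log2(TPM + 1) across 12236 genes. The 5 were EPRS, IARS, GARS, CARS and YARS, and they kept 70.7% to 82.9% of their siCtrl means. Of 15 tested mitochondrial genes none passed, with 2 at an unadjusted p under 0.05, and none of the 3 scaffold genes passed, with 0 at an unadjusted p under 0.05. In the same limma fit 8 of the 20 cytosolic genes had an unadjusted p under 0.05, as did 3795 of all 12236 tested genes, in either direction. The 5 are 25.0% of the cytosolic genes. The median log2 change was -0.11 over the cytosolic genes and -0.0021 over the mitochondrial ones, where all tested genes had 0.05. Whether the compartments differ was not tested beyond these counts. The siNUDT5 values lay below all siCtrl values in 9 of the 20 cytosolic genes (45.0%), where 12.9% of all tested genes did so, and in 0 of the 15 mitochondrial genes.

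These calls depended on single libraries. None of the 20 passed without siCtrl 3 or without any single siNUDT5 library, and the lowest limma adjusted p was 0.0548 to 0.0935. In these settings 7 or 8 of the 20 had an unadjusted p under 0.05 and a negative change. Such genes were not counted over the whole table in these settings. Falls over all genes also dropped, from 636 to 273 without siCtrl 3 and to 305, 254 and 212 without siNUDT5 1, 2 and 3. Without siCtrl 1, 4 fell, EPRS, IARS, GARS and TARS, against 6.07% of all genes. Without siCtrl 2, 8 of the 20 fell, against 9.29% of all genes, as TARS, MARS and AARS joined the 5. The same 8 genes fell when the libraries were rescaled by median ratios, where 7.39% of all genes fell and 8.45% rose. Without a trend of the variance on level in the limma fit, EPRS and IARS still fell and the other 3 did not pass. None of the 20 passed with the replicate number as a block, a setting in which 253 of all tested genes fell.

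**Figure D1:**
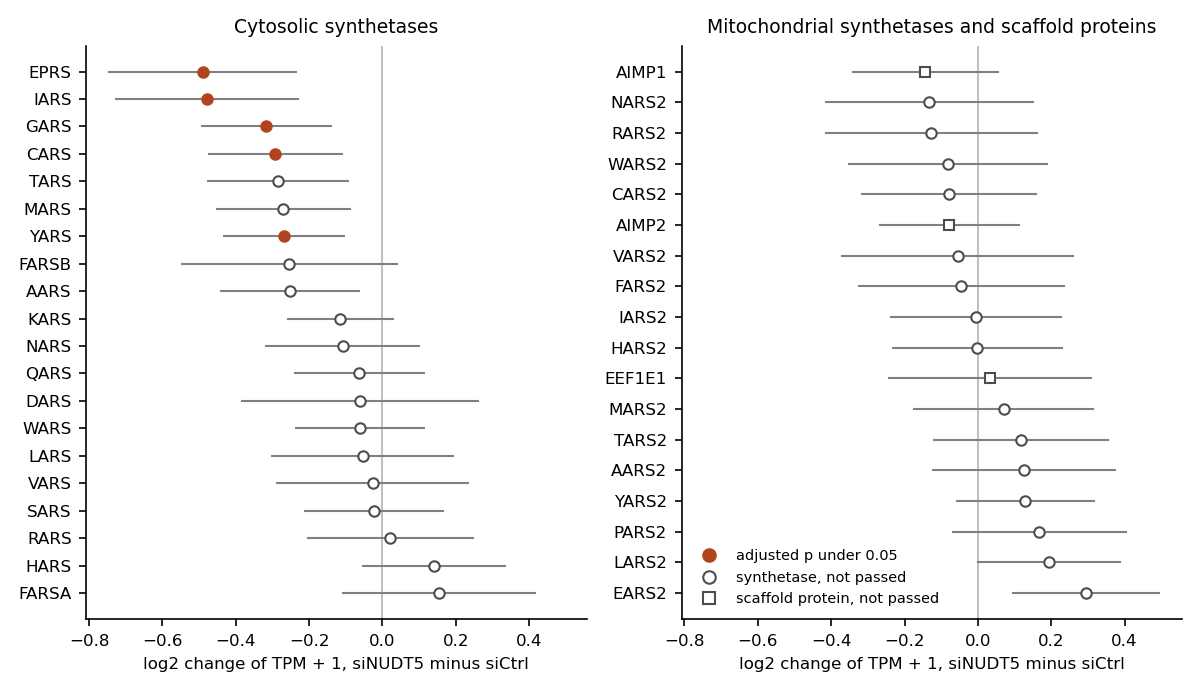
Log2 change of TPM + 1, siNUDT5 minus siCtrl, for the 38 tested members with 95% confidence intervals from limma (3 libraries a group), with cytosolic synthetases on the left and mitochondrial synthetases (circles) and scaffold proteins (squares) on the right. Filled points passed an adjusted p of 0.05. All 5 are cytosolic and lie between -0.49 and -0.27, while mitochondrial genes lie on both sides of 0.

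EPRS, the bifunctional enzyme that charges both glutamate and proline tRNAs, and IARS, the isoleucyl-tRNA synthetase, had the largest falls. EPRS had 232, 206 and 212 TPM in siNUDT5, against 265, 355 and 299 TPM in siCtrl, with libraries 1 to 3 in order. The groups did not overlap, and siCtrl 2 was the highest library. The means were 217 ± 13.7 TPM in siNUDT5 and 307 ± 45.4 TPM in siCtrl (SD, n = 3 each). The log2 change was -0.49 with standard error 0.11 (limma adjusted p = 0.0218). IARS had 251, 236 and 232 TPM in siNUDT5, against 292, 391 and 327 TPM in siCtrl, and again siCtrl 2 was highest and the groups were apart. Its log2 change was -0.48 with standard error 0.11 (adjusted p = 0.0217, limma). Without siCtrl 2 the log2 changes were smaller, at -0.38 for EPRS and -0.36 for IARS, and both still passed. EPRS and IARS are members of the multi-synthetase complex.

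GARS, the glycyl-tRNA synthetase, was the most abundant synthetase measured. It had 565, 548 and 542 TPM in siNUDT5, against 631, 739 and 696 TPM in siCtrl. A single GARS gene supplies the enzyme to both the cytosol and the mitochondria. Its log2 change was -0.32 with standard error 0.077 (limma adjusted p = 0.0271). CARS, the cysteinyl-tRNA synthetase, varied little in the knockdown, with 92.8, 91.3 and 90.4 TPM in siNUDT5, against 116, 104 and 116 TPM in siCtrl. Here siCtrl 2 was the lowest control library and still lay above all siNUDT5 libraries. The log2 change of CARS was -0.29 (standard error 0.079, limma adjusted p = 0.0397). YARS, the tyrosyl-tRNA synthetase, had 233, 242 and 228 TPM in siNUDT5, against 287, 269 and 293 TPM in siCtrl. Its log2 change was -0.27 (standard error 0.072, limma adjusted p = 0.0380). The span of YARS overlaps that of S100PBP in RefSeq, and S100PBP also fell, by 0.39 on the log2 scale (limma adjusted p = 0.0335). The sources used here do not state whether counting used strand, so reads of the overlapping genes may not have been kept apart.

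TARS, MARS and AARS, which charge threonine, methionine and alanine, were close to the threshold. TARS had 319, 309 and 311 TPM in siNUDT5, against 354, 424 and 371 TPM in siCtrl, a log2 change of -0.28 (limma adjusted p = 0.0520). MARS had 257, 277 and 250.3 TPM in siNUDT5, against 324, 294 and 328 TPM in siCtrl (-0.27, limma adjusted p = 0.0513). AARS had 155, 157 and 146 TPM in siNUDT5, against 184, 168 and 194 TPM in siCtrl (-0.25, limma adjusted p = 0.0717). In each of the 3 genes the groups did not overlap. MARS overlaps DDIT3 in RefSeq, a gene at 10.1 to 14.9 TPM in siNUDT5 and 14.1 to 18.7 TPM in siCtrl.

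**Figure D2:**
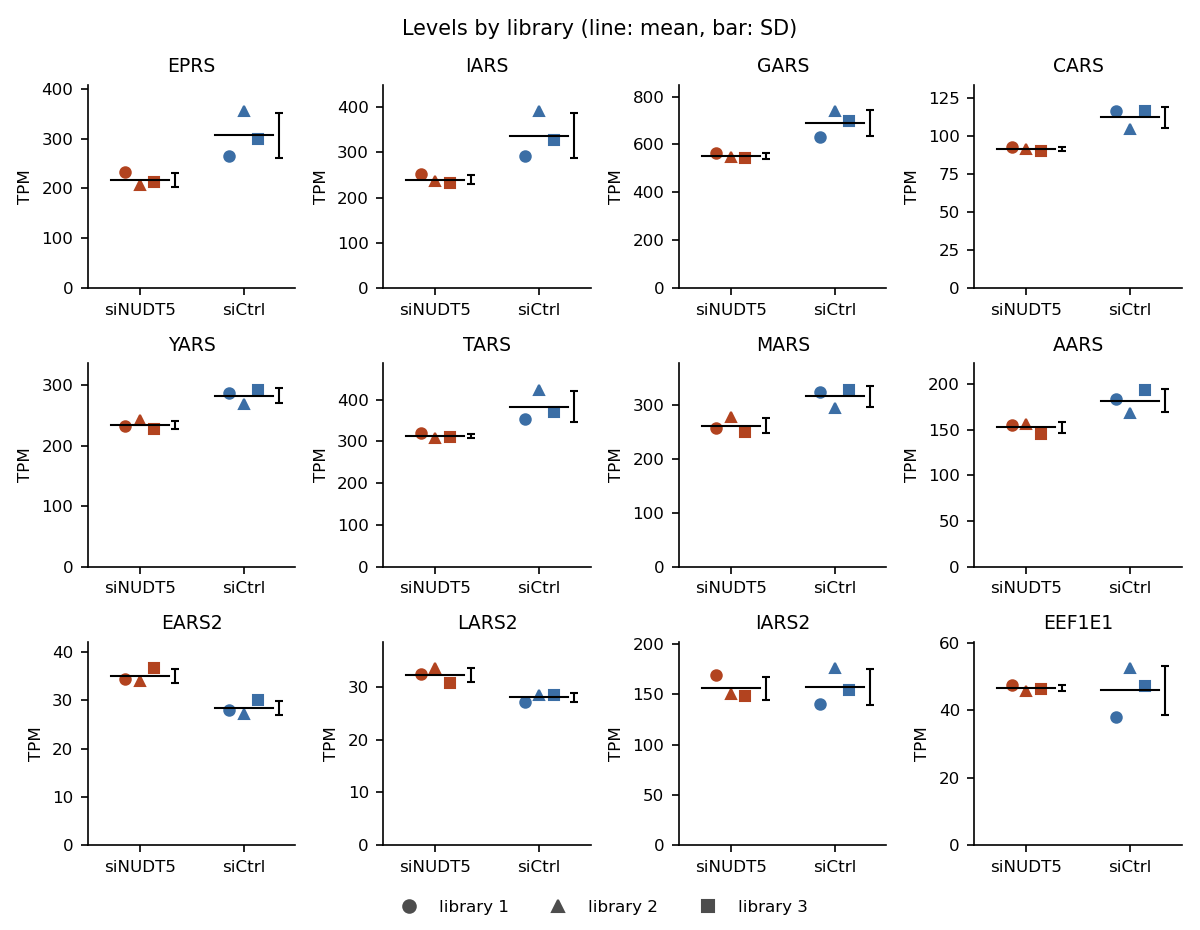
TPM in each library for 12 members, siNUDT5 left of siCtrl, with the marker shape giving the library number, the line the mean and the bar the SD (n = 3 each). In the first 8 panels, EPRS to AARS, every siNUDT5 library lies below every siCtrl library, whereas EARS2 and LARS2 lie above and IARS2 and EEF1E1 overlap.

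The other 12 cytosolic members did not pass either. KARS, the lysyl-tRNA synthetase, whose gene also serves both compartments, had 459, 466 and 454 TPM in siNUDT5, against 497, 488 and 508 TPM in siCtrl. Its groups were apart but the log2 change was -0.11 (95% interval -0.26 to 0.03, limma adjusted p = 0.255). RARS, SARS and VARS, for arginine, serine and valine, had log2 changes of 0.02, -0.02 and -0.03, with 95% intervals within -0.29 and 0.25. DARS, LARS and FARSB, for aspartate, leucine and the beta chain of the phenylalanine enzyme, were highest in siCtrl 2 and overlapped between the groups (log2 changes -0.06, -0.05 and -0.25). NARS, for asparagine, had a log2 change of -0.11. QARS, which charges glutamine in the cytosol and has no counterpart among the mitochondrial members, had 165, 178 and 166 TPM in siNUDT5, against 182, 167 and 184 TPM in siCtrl, which overlapped (-0.06, limma adjusted p = 0.628). WARS, the tryptophan enzyme, which interferon induces, had 71.6, 73.3 and 68.8 TPM in siNUDT5, against 72.1, 75.3 and 75.6 TPM in siCtrl, a log2 change of -0.06 (95% interval -0.24 to 0.11, limma adjusted p = 0.642). FARSA, the alpha chain of the phenylalanine enzyme, and HARS, for histidine, had positive log2 changes of 0.15 and 0.14. HARS had 37.7, 39.5 and 36.6 TPM in siNUDT5, against 34.1, 32.9 and 36.1 TPM in siCtrl, so that its siNUDT5 libraries were all higher, though it did not pass (limma adjusted p = 0.302). With 36.1 TPM over all 6 libraries HARS was also the least abundant cytosolic member.

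The cytosolic members were also counted by their known link to ATF4. Of 11 genes commonly reported as ATF4 targets (AARS, CARS, EPRS, GARS, IARS, MARS, NARS, SARS, TARS, WARS and YARS), 5 fell, 6 did not pass, all 11 had a negative log2 change, and the median was -0.27. Of the other 9 none passed, with 0 at an unadjusted p under 0.05, 6 had a negative change and the median was -0.05. Over all 12236 tested genes 5.20% fell, 3795 had an unadjusted p under 0.05, 5171 had a negative log2 change and the median was 0.05. This target list was drawn up from general knowledge with earlier results of these samples known, and is not independent evidence of its direction. ATF4 itself fell, to 485, 512 and 467 TPM in siNUDT5, against 1001, 827 and 946 TPM in siCtrl (log2 change -0.92, limma adjusted p = 0.000748). Of the 8 synthetases of the complex 2 fell, with a median of -0.09, and of the 12 outside it 3 fell, with a median of -0.18. Among class I enzymes, which share a Rossmann-fold catalytic domain, 3 of 9 fell, and among class II enzymes, built on an antiparallel beta sheet, 1 of 10 fell. EPRS, which fell, holds an enzyme of each class. The counts by complex and by class rest on few genes, and 5.20% of all tested genes fell. Differences between these groups were not tested.

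Promoter windows from RefSeq (GRCh38.p14, 250 bases before to 50 bases after each gene start) were found for 33 of the 39 members. The element TGATGNAA, searched on both strands, lay in a window of 7 of 16 cytosolic members (43.8%), and in 2.87% of the 9909 tested genes with a window. The narrower TGATGCAA, which TGATGNAA includes, lay in 6 of the 16 (AARS, CARS, IARS, MARS, NARS and TARS), against 0.807% of those genes. GARS held TGATGNAA in the window of its other annotated start. The windows of the 3 members that fell and held the element are shown whole to place it relative to the gene start, marked by RefSeq at base 251 of each. The match is in capitals and reads TTGCATCA or TTTCATCA where it lies on the opposite strand.
IARS (chr9:92293648-92293947, minus strand): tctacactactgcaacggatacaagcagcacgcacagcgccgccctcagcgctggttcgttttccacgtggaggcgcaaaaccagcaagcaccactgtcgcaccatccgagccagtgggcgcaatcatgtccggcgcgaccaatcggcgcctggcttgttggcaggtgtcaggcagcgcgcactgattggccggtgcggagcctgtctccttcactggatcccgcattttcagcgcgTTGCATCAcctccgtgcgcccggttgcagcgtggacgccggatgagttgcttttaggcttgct
GARS (chr7:30594628-30594927, plus strand): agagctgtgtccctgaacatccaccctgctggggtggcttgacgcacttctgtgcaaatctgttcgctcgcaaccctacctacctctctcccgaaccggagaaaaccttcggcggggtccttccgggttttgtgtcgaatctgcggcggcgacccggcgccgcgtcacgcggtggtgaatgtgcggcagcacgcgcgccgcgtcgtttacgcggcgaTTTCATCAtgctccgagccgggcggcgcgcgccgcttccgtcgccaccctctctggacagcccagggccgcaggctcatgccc
CARS (chr11:3057374-3057673, minus strand): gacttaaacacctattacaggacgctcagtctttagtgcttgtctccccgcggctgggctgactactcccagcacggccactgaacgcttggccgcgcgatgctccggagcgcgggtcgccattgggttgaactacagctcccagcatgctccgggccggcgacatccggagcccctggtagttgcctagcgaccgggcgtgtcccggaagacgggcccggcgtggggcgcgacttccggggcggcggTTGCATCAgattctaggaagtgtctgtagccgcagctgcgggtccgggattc

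In IARS the match began 13 bases before the gene start, in GARS 33 bases before it and in CARS 2 bases before it. The other 4 cytosolic matches are shown with 16 bases on either side, because TARS, MARS and AARS were the genes nearest the threshold and NARS was not.
TARS (chr5:33440951-33440990, plus strand): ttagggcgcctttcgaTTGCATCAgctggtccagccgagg
MARS (chr12:57488048-57488087, plus strand): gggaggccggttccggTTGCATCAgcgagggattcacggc
AARS (chr16:70289670-70289709, minus strand): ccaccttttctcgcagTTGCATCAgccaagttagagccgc
NARS (chr18:57621799-57621838, minus strand): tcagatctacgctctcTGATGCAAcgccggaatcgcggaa

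The match began 4 bases before the start in MARS, 187 bases before it in AARS, at base 3 of the transcript in TARS and at base 15 in NARS, where it lay on the sense strand. Of the 7 cytosolic members with the element 3 fell, where 5.20% of all tested genes did, and 6 had siNUDT5 values below all siCtrl values, where 12.9% of all tested genes did. Their median log2 change was -0.28, with a range of -0.48 to -0.11. Of the 9 with a window but no match 1 fell, EPRS, 2 had siNUDT5 values below all siCtrl values, and the median was -0.06, with a range of -0.49 to 0.15. YARS fell among the 4 with no entry, the others being DARS, LARS and VARS. AARS2 and VARS2 had no entry either. A match describes letters in a window, and binding of ATF4 was not measured.

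**Figure D3:**
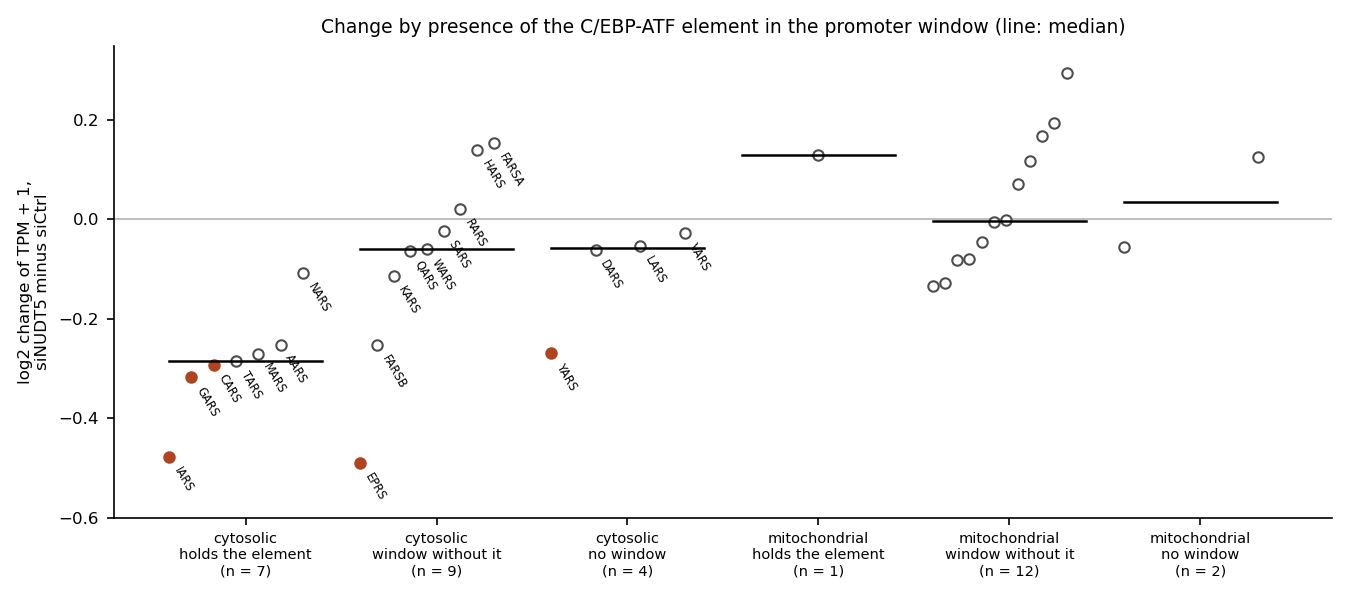
Log2 change of TPM + 1, siNUDT5 minus siCtrl, of the tested synthetases by compartment and by whether a promoter window held TGATGNAA on either strand. Filled points passed an adjusted p of 0.05 and lines are medians, -0.28 for the 7 cytosolic members with the element and -0.06 for the 9 with a window but without it. The grouping has no test.

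Mitochondrial synthetases stood at lower levels and on both sides of no change. Their median level was 29.0 TPM over all 6 libraries, against 224 TPM for the cytosolic enzymes. IARS2, for isoleucine, was highest, with 169, 151 and 148 TPM in siNUDT5, against 141, 176 and 154 TPM in siCtrl, and a log2 change of -0.0053. Of the 15 tested genes 8 had a negative and 7 a positive log2 change. The most negative were NARS2 (-0.13) and RARS2 (-0.13), for asparagine and arginine, and both were highest in siCtrl 2. EARS2, which loads glutamate and, in mitochondria, also makes the misacylated precursor of glutaminyl-tRNA, had the largest change of the 15. EARS2 had 34.4, 34.0 and 36.6 TPM in siNUDT5, against 27.9, 27.1 and 30.0 TPM in siCtrl, with every siNUDT5 library above every siCtrl library. The log2 change was 0.30 (95% interval 0.10 to 0.49, limma adjusted p = 0.0531), and EARS2 passed without siCtrl 2 (0.27, limma adjusted p = 0.0273). In that setting 21.8% of all tested genes rose, and EARS2 was the only 1 of the 15 to do so. LARS2, for leucine, had 32.4, 33.5 and 30.8 TPM in siNUDT5, against 27.1, 28.5 and 28.5 TPM in siCtrl (0.19, limma adjusted p = 0.160). YARS2, for tyrosine, had 50.8, 53.4 and 51.6 TPM in siNUDT5, against 45.0, 47.9 and 49.5 TPM in siCtrl (0.13, limma adjusted p = 0.318). Among the 15 tested mitochondrial genes, these 3 are the ones whose siNUDT5 values lay above all siCtrl values (20.0%), where 24.3% of all tested genes did so.

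The window of EARS2 is shown as that of the tested mitochondrial member with the largest change. It held no TGATGNAA, and a match to CCGGAAG, a motif of ETS factors, is in capitals.
EARS2 (chr16:23557301-23557600, minus strand): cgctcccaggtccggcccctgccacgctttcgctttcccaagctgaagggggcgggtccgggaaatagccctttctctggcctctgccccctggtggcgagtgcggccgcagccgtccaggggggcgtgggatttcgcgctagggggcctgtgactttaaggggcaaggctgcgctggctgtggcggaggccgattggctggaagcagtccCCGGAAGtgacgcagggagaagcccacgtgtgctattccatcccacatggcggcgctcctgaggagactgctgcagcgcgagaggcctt

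CCGGAAG, searched on both strands, lay in a window of 9 of 16 cytosolic members (56.3%) and of 7 of 14 mitochondrial ones (50.0%), against 23.1% of tested genes. YARS2 was the mitochondrial member with TGATGNAA, 1 of 14 (7.14%), 197 bases before its start. HARS and HARS2 lie next to each other on opposite strands of chromosome 5, and 184 bases of their windows are shared. HARS2 had a log2 change of -0.0021, with 28.4, 29.7 and 25.2 TPM in siNUDT5, against 30.0, 26.3 and 27.1 TPM in siCtrl.

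PARS2, for proline, had a log2 change of 0.17, AARS2, for alanine, of 0.13, TARS2, for threonine, of 0.12 and MARS2, for methionine, of 0.07. Those of WARS2, CARS2 and VARS2, for tryptophan, cysteine and valine, were -0.08, -0.08 and -0.06. FARS2, for phenylalanine, the lowest tested mitochondrial member at 11.1 TPM, had -0.04. None of these 8 passed. SARS2, for serine, was not tested, as its mean of 0.651 TPM was under the minimum of 1 TPM. Its levels were 0.506, 0.909 and 1.61 TPM in siNUDT5, against 0.226, 0.353 and 0.303 TPM in siCtrl. The values of SARS2 did not overlap between the groups but were far below those of every other member. The windows of SARS2 and MRPS12, which face opposite ways, share 290 bases, and the sources used here do not say how reads of overlapping genes were counted. In RefSeq the spans of EARS2 and GGA2, CARS2 and ING1, and FARS2 and LYRM4 also overlap.

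Set against each other by amino acid, the cytosolic transcript was the more abundant in all 17 pairings. Leaving out SARS2, the TPM ratio of the cytosolic to the mitochondrial gene had a median of 5.64 over 16 pairings, with HARS over HARS2 lowest at 1.30 and EPRS over PARS2 highest at 23.6. The ratio was lower in every siNUDT5 library than in any siCtrl library in 8 of these 16, higher in 1 and overlapping in 7. The share of such ratios over all genes was not computed. Of single tested genes, 12.9% lay below all siCtrl values and 24.3% above. The lower pairings include AARS, EPRS, IARS, MARS, TARS and YARS, already counted above as lower in siNUDT5, so this count is not separate from that one. EPRS over EARS2 had 6.75, 6.06 and 5.79 in siNUDT5, against 9.51, 13.1 and 9.98 in siCtrl, and its siNUDT5 mean was 57.1% of the siCtrl mean. IARS over IARS2 had 1.49, 1.57 and 1.56 in siNUDT5, against 2.08, 2.22 and 2.12 in siCtrl, with little spread in either group, and both genes of the pairing were highest in siCtrl 2. FARSA over FARS2 was the pairing that was higher, with 7.37, 6.56 and 6.14 in siNUDT5, against 5.92, 5.78 and 5.67 in siCtrl. These ratios are a description with no test, and pairings that share EPRS or FARS2 are not independent.

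**Figure D4:**
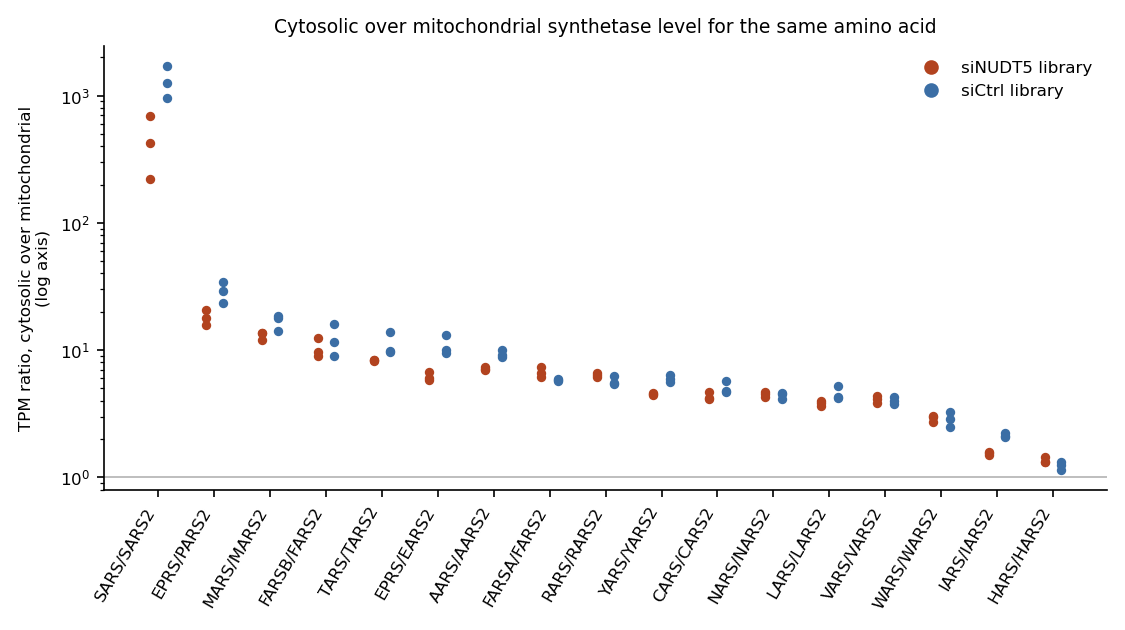
TPM ratio of the cytosolic to the mitochondrial synthetase for the same amino acid in each library, on a log axis, with siNUDT5 left of siCtrl within each pairing. All ratios lie above 1, and those of EPRS over EARS2, IARS over IARS2 and YARS over YARS2 are lower in siNUDT5 with no overlap. SARS over SARS2 is set by the low values of SARS2.

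Summed over their members, the 20 cytosolic genes held 4425, 4370.0 and 4228 TPM in siNUDT5, against 4757, 5217 and 4993 TPM in siCtrl. The 16 mitochondrial genes held 595, 584 and 562 TPM in siNUDT5, against 542, 601 and 577 TPM in siCtrl. The sums of the cytosolic genes were apart and those of the mitochondrial genes overlapped. Their ratio was 7.44, 7.49 and 7.52 in siNUDT5, against 8.78, 8.68 and 8.65 in siCtrl, a separation larger than the spread within either group (7.48 ± 0.0379 in siNUDT5 and 8.70 ± 0.0705 in siCtrl, SD, n = 3 each). siCtrl 2, which stood apart for single genes, did not stand apart in this ratio. The cytosolic sums include GARS and KARS, whose genes serve both compartments, so the ratio does not fully separate the compartments.

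**Figure D5:**
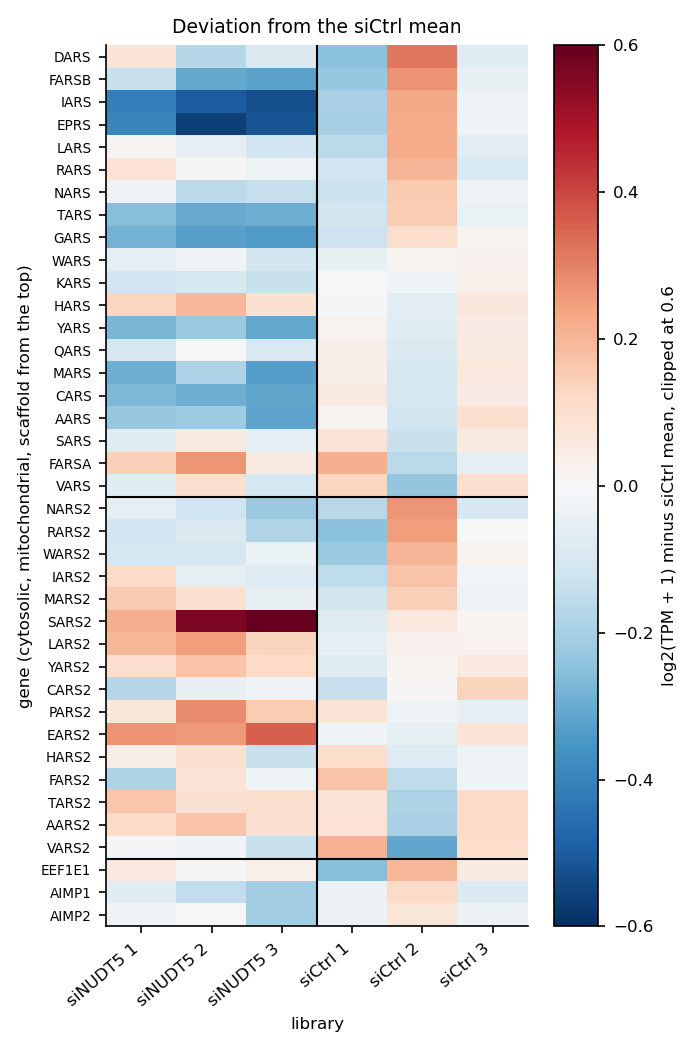
Deviation of each library from the siCtrl mean on the log2(TPM + 1) scale, clipped at 0.6, for all 39 members, ordered within each group of genes by siCtrl 2 minus the mean of siCtrl 1 and siCtrl 3. siCtrl 2 is high for DARS (0.48) and low for VARS2 (-0.47), and the lowest siNUDT5 values are those of EPRS and IARS in the upper block of cytosolic genes.

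siCtrl 2 was above the mean of the other siCtrl libraries in 21 of the 38 tested members and below it in 17. In TARS, GARS, EPRS and IARS it was the highest control, and in MARS, AARS, CARS and YARS the lowest. The scaffold proteins had log2 changes of -0.14 for AIMP1, -0.08 for AIMP2 and 0.03 for EEF1E1, which is also called AIMP3. EEF1E1, the least abundant of them, had 47.5, 45.8 and 46.5 TPM in siNUDT5, against 38.0, 52.5 and 47.3 TPM in siCtrl. AIMP2 had 257, 261 and 226 TPM in siNUDT5, against 255, 275 and 255 TPM in siCtrl, and overlaps EIF2AK1 in RefSeq, as AIMP1 overlaps TBCK.

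Genes that work beside the synthetases were taken from lists drawn up with earlier results known. Over all 12236 tested genes 5.20% fell, 10.9% rose and 3795 had an unadjusted p under 0.05 by limma. Of 5 cytosolic elongation factors, which bring charged tRNA to the ribosome or move it along, EEF1B2 fell (-0.28, limma adjusted p = 0.0444) and none rose. EEF1B2 had 929, 1021 and 940.0 TPM in siNUDT5, against 1243, 1071 and 1210 TPM in siCtrl. Its call was lost without siCtrl 1, siCtrl 3 or any siNUDT5 library. It was also lost without a trend, with no filter on low genes and with the replicate number as a block. Without siCtrl 2, 3 of the 5 elongation factors fell. None of 10 mitochondrial translation factors passed, with 4 at an unadjusted p under 0.05, while 2 rose and 2 fell without siCtrl 2, a setting in which 21.8% of all tested genes rose and 9.29% fell. None of 4 genes that amidate or formylate mitochondrial tRNA passed, with 1 at an unadjusted p under 0.05, and none of 4 tested proofreading factors did, with 0.

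In tRNA maturation and export, 1 of 16 genes fell, TSEN15, a subunit of the tRNA splicing endonuclease, where 5.20% of all tested genes fell. TSEN15 had 140.4, 127 and 132 TPM in siNUDT5, against 159, 234 and 174 TPM in siCtrl (-0.49, limma adjusted p = 0.0446). The call was lost without siCtrl 3 or any siNUDT5 library, without a trend, with no filter and with the replicate number as a block. Among 11 genes of uncharged tRNA sensing and eIF2 phosphorylation, ATF4 and EIF2AK1, the heme-regulated eIF2 kinase, fell and none rose, against 5.20% and 10.9% of all tested genes. EIF2AK1 had 124, 120.2 and 120.3 TPM in siNUDT5, against 161, 196 and 172 TPM in siCtrl (-0.53, limma adjusted p = 0.00666). Both also fell when any 1 library was left out. EIF2AK4, which encodes GCN2, had siNUDT5 values above all siCtrl values, as 24.3% of all tested genes did, but did not pass (0.24, limma adjusted p = 0.135). It rose together with EIF2AK3, which encodes PERK, without siCtrl 2, a setting in which 21.8% of all tested genes rose. Of the synthetase-related genes TARSL2, PSTK and SEPSECS, outside the 39, none passed, with 1, PSTK, at an unadjusted p under 0.05. PSTK rose with a pseudocount of 5 and without a trend, and PSTK and TARSL2 rose without siCtrl 2, against that same 21.8%.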

How the data were processed

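RNA of U2OS cells was made into strand-specific libraries with the KAPA mRNA HyperPrep chemistry, per the labels' protocols. The authors deposited TPM per gene symbol for 6 libraries. STAR 2.7.3a, DESeq2 1.22.1 and hg19 appear in the submitters' processing notes; what each was used for, the annotation and the strand setting are unstated in the sources used here. TPM are not counts, and count models were therefore not used. The comparison, siNUDT5 minus siCtrl, was fitted by limma 3.58.1 (R 4.3.3; lmFit, then eBayes with a variance trend) to log2(TPM + 1) of the 12236 genes whose mean reached 1 TPM, two-sided, with Benjamini-Hochberg adjustment. Changes on this scale understate those of low genes. The fit was checked on simulated data. Means, SDs and the permutation test used Python 3.11.15, numpy 2.4.6, pandas 2.3.3 and scipy 1.17.1, and figures matplotlib 3.10.9.

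Members, gene lists, motifs and tests were chosen with earlier results of these data known. Members that passed, the extremes of level, NUDT5, ATF4, WARS, GARS, KARS, QARS and passing genes of the other lists were to be described in full, and the per-library values of further members were chosen after their values were seen. For depth, genes below 0.3 TPM in siCtrl 1 were used: between libraries, 74.0% to 82.0% of their ratios fell within 0.1% of ratios of small whole numbers, 5 at most. Promoter sequences are RefSeq's on GRCh38.p14, another build than the notes name, matched by symbol or synonym. Some genes and a motif of the lists are not reported here. A gene held a motif when any of its windows did. Overlaps between genes are RefSeq's on the same assembly.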

Additional observations from a re-analysis of the deposited data

How the results depend on the processing

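The 5 falls among cytosolic synthetases kept their direction in all 14 alternatives. All 5 passed with pseudocounts of 0.1 and 5, without a filter and at a mean of at least 5 TPM. The count of cytosolic falls was 8 with median-ratio scaling, 8 with quantile normalization and 2 (EPRS and IARS) without a trend, and 0 to 8 when a library was left out. No mitochondrial gene rose except EARS2 without siCtrl 2, a range of 0 to 1, in a setting where 21.8% of all tested genes rose. The median log2 change of cytosolic genes was -0.17 with median-ratio scaling, -0.14 with quantile normalization and -0.18 to -0.10 when a library was left out. That of mitochondrial genes was -0.057 with either scaling and -0.0031 to 0.064 when a library was left out. With the replicate number as a block 0 cytosolic genes fell by limma, with 7 at an unadjusted p under 0.05, and over all genes 253 fell and 486 rose. Genes at an unadjusted p under 0.05 were not counted over the whole table in this setting. Same-numbered libraries deviated from their group means with correlations of -0.43, -0.54 and -0.045. With 3 libraries a group, siCtrl 2 standing apart and no comparison with differently numbered libraries, these values cannot settle whether the numbers pair the libraries.

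Over all genes 636 fell and 1334 rose, against 904 and 1034 with median-ratio scaling, 965 and 1018 with quantile normalization, and 212 to 1137 falls and 521 to 2665 rises when a library was left out. Members that did not pass changed sign in places, never past the threshold. RARS was -0.036 with median-ratio scaling and -0.020 with quantile normalization, and EEF1E1 -0.023 and -0.029. When a library was left out, the log2 change ranged from -0.18 to 0.098 for DARS, -0.13 to 0.058 for LARS, -0.036 to 0.12 for RARS, -0.088 to 0.016 for SARS, -0.14 to 0.037 for VARS, -0.12 to 0.041 for FARS2, -0.051 to 0.064 for HARS2, -0.081 to 0.080 for IARS2, -0.21 to 0.048 for VARS2, -0.19 to 0.020 for WARS2 and -0.095 to 0.13 for EEF1E1. The causes were not tested. TPM keep no total depth, so counting error of single genes was not computed.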
